A study of Mus musculus with 24 samples.

Results

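The knockout of Prdm16 was compared between radial glia and neurons of the mouse cerebral cortex at E15.5, in mid-neurogenesis, as a difference of differences. For each gene, the KO minus WT difference in PAX6+ cells was subtracted from the KO minus WT difference in PAX6-TBR2- cells, on the log2 scale. Below, this value is called the contrast. It is negative where the genotype difference in PAX6-TBR2- cells lies below that in PAX6+ cells, and positive where it lies above. The contrast used 16 of the 24 libraries of the series, 4 each of WT PAX6+, KO PAX6+, WT PAX6-TBR2- and KO PAX6-TBR2-, assigned by their titles. The other 8 libraries, 4 WT and 4 KO of TBR2+ cells, are labelled as intermediate progenitors and share no library with the contrast.

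WT here means Prdm16 flox/flox and KO means Emx1Ires-Cre; Prdm16flox/flox, so all groups carry the floxed alleles and the Cre allele is present in KO alone. Effects of the Cre allele and of the loss of Prdm16 cannot be told apart in this design. Emx1-driven Cre is known to recombine in cells born in the dorsal telencephalon and to spare the cortical interneurons, which migrate in from the ventral side. The embryo or litter behind each replicate is not given in the labels, so a p-value here reflects only how far these libraries spread, which may be technical. Because the libraries of each population share a name prefix of their own, population and handling cannot be told apart, which a contrast of differences within populations removes only where handling acted alike on both genotypes. In bulk RNA of sorted cells, fewer cells of a type and less RNA per cell cannot be told apart.

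PRDM16 is a zinc finger protein with a PR domain that acts with corepressors and with histone-modifying enzymes on gene regulatory regions. In the developing cortex it is known as a gene of radial glia, the progenitors that line the ventricle, express PAX6 and give rise to neurons, often through TBR2+ intermediate progenitors. Newborn neurons leave the ventricular zone, lose PAX6, and switch on genes for migration, axon growth, adhesion and synaptic signalling. A difference of differences asks of each gene whether the genotype difference itself changes between progenitors and their neuronal progeny.

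The sorted populations carried the markers of their labels. The 9 radial glia markers summed to 3142 to 4202 CPM (counts scaled to the library's TMM-adjusted total) in PAX6+ libraries and to 279 to 413 CPM in PAX6-TBR2- libraries, and Tubb3, a neuronal tubulin, ran from 6.04 to 11.6 CPM against 366 to 623 CPM. The 9 neuron markers summed to 409 to 486 CPM in WT PAX6+ and 415 to 432 CPM in KO PAX6+, and those ranges overlapped. The 6 interneuron markers summed to 8.09 to 29.9 CPM in WT PAX6+ and 7.18 to 9.49 CPM in KO PAX6+, with 4 of 6 at a mean of 1 CPM or more in both. In PAX6-TBR2- cells their sum was 356 to 1011 CPM in WT and 475 to 1140 CPM in KO, and these markers belong to the cells that Emx1-driven Cre is known to spare. Totals were 7.75 to 12.6 M counts in WT PAX6+, 7.62 to 11.3 M in KO PAX6+, 4.95 to 30.03 M in WT PAX6-TBR2- and 6.39 to 8.23 M in KO PAX6-TBR2-. Xist, the X-inactivation RNA, stood at 21.3 CPM in KO PAX6+ replicate 4 and 20.5 CPM in KO PAX6-TBR2- replicate 4, and at 1353 CPM or more in the other 14 libraries. The Y-linked gene Kdm5d was at 26.7 CPM or more in all 16 libraries, so those 14 held both Xist and Y-linked RNA. Kdm5d was highest in the KO libraries numbered 4, at 119.8 CPM in PAX6+ and 111.2 CPM in PAX6-TBR2-.

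The contrast passed the test for 117 of 15102 genes (0.775%) by edgeR's quasi-likelihood test at an adjusted p under 0.05. It was negative for 87 genes (0.576%) and positive for 30 genes (0.199%). Of the 117 genes, 105 were protein coding. Without both KO libraries numbered 4, in which Xist was low, 84 genes passed.

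Most genes of the contrast also differed between KO and WT in radial glia, and almost no gene was called in neurons by the main edgeR fit. In PAX6+ cells 516 genes differed between KO and WT in the same fit (3.42%), 342 higher in KO (2.26%) and 174 lower (1.15%). In PAX6-TBR2- cells 1 gene, Ptx3, passed (0.00662%), and 990 genes (6.555%) had an unadjusted p under 0.05. DESeq2 called 33 genes and limma 4 in these neurons, and a fit with the replicate number as a block in the PAX6+ libraries called 10, of which 5 were higher and 5 lower. With the block in both populations 125 neuronal genes were called, and without a filter 51, so the neuronal count depends on the fit. Of the 117 genes of the contrast, 113 passed in PAX6+ and not in PAX6-TBR2-, none passed in PAX6-TBR2- alone or in both, and 4 passed in neither. Those 4, named here after their values were seen, were Zfhx4, Sypl2, Grm5 and 2700069I18Rik. Because the contrast contains the PAX6+ difference and 1 gene was called in neurons, this split was largely fixed in advance.

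Levels placed the 2 directions differently. Across the 87 genes with a negative contrast, the median of the mean level was 9.63 CPM in WT PAX6+ and 28.7 CPM in KO PAX6+, against 44.3 CPM in WT and 48.6 CPM in KO PAX6-TBR2-. Their median log2 difference, KO minus WT, was 1.37 in PAX6+ and 0.09 in PAX6-TBR2-. Across the 30 genes with a positive contrast, the median level was 16.1 CPM in WT PAX6+ and 6.39 CPM in KO PAX6+, against 41.1 and 51.1 CPM in WT and KO PAX6-TBR2-. Their median log2 difference was -1.56 in PAX6+ and 0.10 in PAX6-TBR2-. Over all 15102 genes both medians were within 0.01 of 0. These group medians describe genes that the contrast itself selected and are given without a test.

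Most of these transcripts were detected in neurons, and 3 of the 117 genes had a mean under 1 CPM in both PAX6-TBR2- groups. The 95% interval of the neuronal difference lay within 1 log2 unit of 0 for 102 of the 117 genes and within 0.5 for 50. For 24 genes that interval left out 0 before adjustment. Over all 15102 genes tested, the interval lay within 1 for 11558 and within 0.5 for 6146, and it left out 0 for 992. The median standard error (SE) over all genes was 0.18 in PAX6+, 0.20 in PAX6-TBR2- and 0.27 for the contrast.

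**Figure D1:**
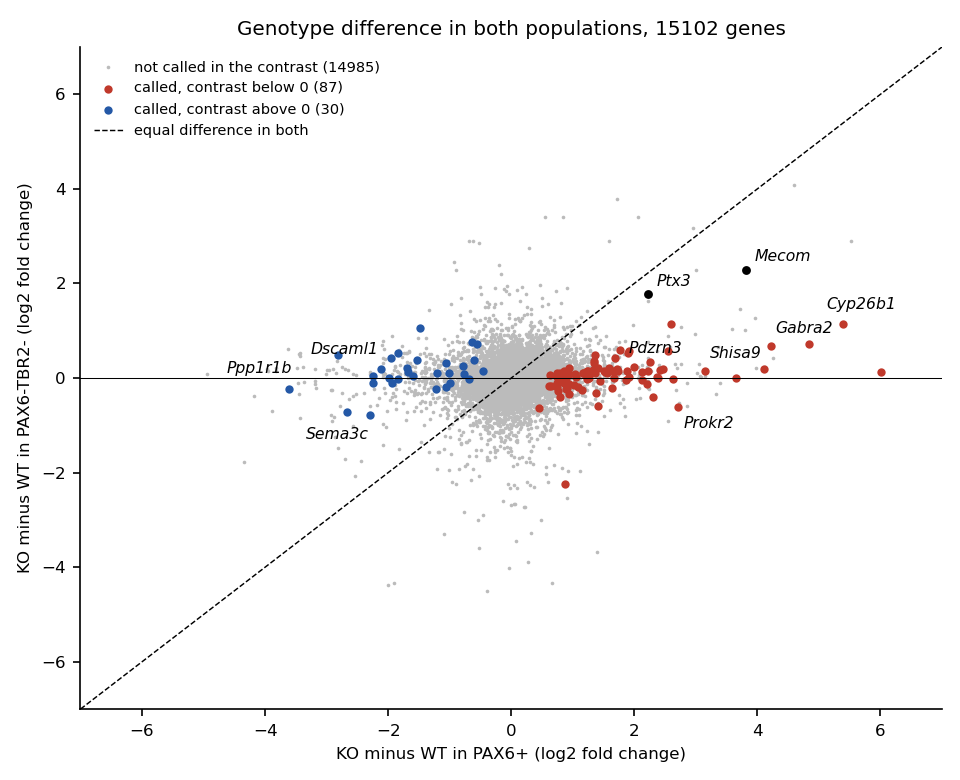
Log2 difference KO minus WT in PAX6+ cells (horizontal) and in PAX6-TBR2- cells (vertical) for the 15102 genes tested, with 4 libraries a group. The 87 genes with a called negative contrast (red) and the 30 with a called positive one (blue) spread along the horizontal axis, and the dashed line marks equal differences in both populations, near which Ptx3 lies.

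Promoters of 4 genes with a called contrast, chosen after their values were seen, are printed because they differ in a motif of this protein family, and larger contrasts are among the genes whose promoters are not shown. The zinc fingers of PRDM16 and its relative MECOM are known to bind sequences with the cores GATGAG and AGATAA. Each sequence, from RefSeq with GRCm38.p6 coordinates, runs 5′ to 3′ on the gene's strand from 250 bases before the annotated start to 30 bases after it, and capitals mark GATGAG or its reverse complement CTCATC. The windows are chr5:71095820-71096099 (minus strand) for Gabra2, chr6:101377868-101378147 (minus) for Pdzrn3, chr2:132385418-132385697 (minus) for Prokr2, and chr8:113848810-113849089 (minus) for Adamts18.
Gabra2: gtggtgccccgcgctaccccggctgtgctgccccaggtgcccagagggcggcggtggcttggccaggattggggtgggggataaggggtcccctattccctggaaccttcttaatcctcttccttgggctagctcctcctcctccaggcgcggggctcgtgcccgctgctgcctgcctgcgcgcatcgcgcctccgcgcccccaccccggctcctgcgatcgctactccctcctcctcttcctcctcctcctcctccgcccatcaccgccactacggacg
Pdzrn3: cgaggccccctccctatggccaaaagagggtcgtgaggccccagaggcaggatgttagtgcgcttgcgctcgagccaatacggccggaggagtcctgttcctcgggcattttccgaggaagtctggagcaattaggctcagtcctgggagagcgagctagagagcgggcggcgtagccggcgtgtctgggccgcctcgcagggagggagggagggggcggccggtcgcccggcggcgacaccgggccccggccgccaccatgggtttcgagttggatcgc
Prokr2: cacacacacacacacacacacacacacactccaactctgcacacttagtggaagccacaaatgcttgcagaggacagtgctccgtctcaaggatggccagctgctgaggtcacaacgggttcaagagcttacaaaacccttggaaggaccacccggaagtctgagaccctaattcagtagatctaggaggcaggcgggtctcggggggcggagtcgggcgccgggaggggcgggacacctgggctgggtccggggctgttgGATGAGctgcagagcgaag
Adamts18: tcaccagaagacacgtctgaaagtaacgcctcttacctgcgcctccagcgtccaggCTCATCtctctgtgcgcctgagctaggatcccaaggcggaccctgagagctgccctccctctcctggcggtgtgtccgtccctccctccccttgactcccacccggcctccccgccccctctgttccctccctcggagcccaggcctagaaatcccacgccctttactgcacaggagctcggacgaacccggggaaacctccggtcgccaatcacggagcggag

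In full windows of 300 bases (250 before and 50 after a start, both strands searched, the motifs not overlapping each other), GATGAG was present in 13 of 92 promoters (14.1%) of the 59 matched genes with a negative contrast. It was present in 3 of 29 (10.3%) of the 20 matched genes with a positive contrast, and in 9.77% of the 13732 promoters of all tested genes that matched. AGATAA was present in 3 of 92 (3.26%), 0 of 29 and 6.33%. Prokr2 and Adamts18, which moved in opposite directions in PAX6+ cells, each held GATGAG once, and the windows of Gabra2 and Pdzrn3 held neither motif.

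Genes of neuronal signalling were among the largest contrasts. Gabra2 encodes the alpha2 subunit of the GABA-A receptor, the chloride channel gated by GABA (ENSMUSG00000000560, GRCm38 chromosome 5, 70957597 to 71095849, minus strand). It was at 2.36, 7.71, 2.81 and 4.39 CPM in the WT PAX6+ libraries and at 71.4, 86.1, 77.3 and 91.5 CPM in the KO PAX6+ libraries. Its neuron values were 23.4, 23.7, 30.4 and 24.8 CPM in WT and 49.6, 37.4, 35.4 and 42.2 CPM in KO. The genotypes did not overlap in either population, as for 8.41% of all genes in PAX6+ and 4.07% in PAX6-TBR2-, and every KO PAX6+ library lay above every neuron library. The log2 difference was 4.22 (SE 0.24) in PAX6+ and 0.68 (SE 0.21, adjusted p = 0.399) in PAX6-TBR2-, and the contrast was -3.54 (SE 0.31, adjusted p = 2.61e-06, edgeR).

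Shisa9 encodes an auxiliary protein of AMPA-type glutamate receptors. WT PAX6+ libraries held 10.9, 10.5, 9.25 and 7.80 CPM and KO PAX6+ libraries 102, 61.7, 91.0 and 88.9 CPM. WT PAX6-TBR2- libraries held 25.02, 11.1, 18.6 and 7.09 CPM and KO libraries 21.1, 17.4, 14.6 and 11.8 CPM. The KO PAX6+ libraries stood above the other 12, while the neuron genotypes overlapped. The contrast was -3.00 (SE 0.39, edgeR adjusted p = 0.000131), made of 3.15 in PAX6+ and 0.15 in PAX6-TBR2-.

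Prokr2, a G protein-coupled receptor for prokineticins, had differences of opposite sign in the populations. It ran at 1.70, 1.85, 1.00 and 2.53 CPM in WT PAX6+ and at 8.99, 11.3, 11.4 and 13.5 CPM in KO PAX6+. In PAX6-TBR2- cells it ran at 9.92, 9.25, 9.95 and 9.602 CPM in WT and at 8.01, 7.23, 4.40 and 5.78 CPM in KO. Neither pair of groups overlapped. Prokr2 rose by 2.71 (SE 0.24) in PAX6+. Its value of -0.61 (95% interval -1.08 to -0.13) in PAX6-TBR2- did not pass after adjustment (adjusted p = 0.593, edgeR), and the contrast was -3.32 (adjusted p = 1.47e-05).

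The potassium channel gene Kcna6 was at 0 to 0.38 CPM in WT PAX6+ and at 1.25 to 5.09 CPM in KO PAX6+, far below the 9.602 to 22.3 CPM of WT PAX6-TBR2- cells. Its contrast was -3.91 (SE 0.67, edgeR adjusted p = 0.00341) and did not pass with limma (0.0566). Kcnn2, a calcium-activated potassium channel gene, rose from 19.1 to 22.6 CPM in WT PAX6+ to 34.2 to 43.6 CPM in KO, and its contrast of -0.77 was lost in 6 of 16 fits that left out 1 library (adjusted p up to 0.0747 without KO PAX6+ replicate 2), with limma (0.0576) and without both KO libraries numbered 4 (0.0773). Plcxd3, of the phospholipase C family, was at 0 to 0.09 CPM in WT PAX6+, 1.01 to 1.89 CPM in KO PAX6+, 3.17 to 4.99 CPM in WT neurons and 4.92 to 10.6 CPM in KO neurons, with a contrast of -4.11 (SE 0.70).

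Other receptor genes had a positive contrast. Grin2b, a subunit of NMDA-type glutamate receptors, was at 33.2, 15.3, 55.1 and 21.3 CPM in WT PAX6+ and at 4.39, 4.91, 12.2 and 7.55 CPM in KO PAX6+. Neuron libraries held it at 583 to 1199 CPM in WT and at 628 to 1423 CPM in KO, so the neuron genotypes overlapped while the PAX6+ genotypes did not. The contrast was 2.29 (SE 0.48, edgeR adjusted p = 0.0195), and it was lost without KO PAX6+ replicate 1 (0.0566) or replicate 2 (0.0686), with limma (0.178) and with all 24 libraries in the fit (0.323). Grm5, a metabotropic glutamate receptor, stayed under 1 CPM in every PAX6+ library and overlapped between genotypes there. Its contrast of 2.37 (adjusted p = 0.0478) was lost in 12 of 16 fits that left out 1 library, with an adjusted p up to 0.188 without WT PAX6+ replicate 3, and with the replicate block in PAX6+ (2.30, adjusted p = 0.0649). It was also lost with limma (0.504), with all 24 libraries in the edgeR fit (0.628), with the deepest WT PAX6-TBR2- library thinned (0.0695) and without both KO libraries numbered 4 (0.195).

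Cyp26b1, an enzyme that breaks down retinoic acid, had the most negative contrast among the genes the naming rule chose. WT PAX6+ libraries held 0.47, 0.67, 0.13 and 0.22 CPM, and KO PAX6+ libraries 19.2, 11.9, 16.5 and 17.3 CPM. PAX6-TBR2- libraries held 0.14 to 1.58 CPM in WT and 0.90 to 3.17 CPM in KO. The KO PAX6+ libraries stood apart from the other 12, and the neuron genotypes overlapped. The contrast was -4.24 (SE 0.70, edgeR adjusted p = 0.00271). Cyp26b1 (GRCm38 chromosome 6, 84571414 to 84593908) lies near Emx1 (85187438 to 85204462), the locus that carries the Cre allele in KO. Chromosome 6 as a whole held 11 of the 117 genes (9.40%) against 4.86% of all tested genes. Of the other named genes with a called contrast, Pdzrn3 (from 101149609), Kcna6 (from 126708329) and Grin2b (from 135713233) lie on it, farther from Emx1 than Cyp26b1. The part of linkage to the Cre allele was not tested.

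Guidance and migration genes moved in both directions. Pdzrn3, a ubiquitin ligase with PDZ domains (GRCm38 chromosome 6, 101149609 to 101377897, minus strand), was at 27.2, 24.3, 36.9 and 27.5 CPM in WT PAX6+ and at 173, 137, 144 and 151 CPM in KO PAX6+. Neurons held it at 194, 216, 300 and 342 CPM in WT and at 193, 203, 319 and 341 CPM in KO. The PAX6+ genotypes were apart by a wide gap, and the neuron genotypes lay on top of each other. The log2 difference was 2.38 (SE 0.20) in PAX6+ and 0.004 (95% interval -0.38 to 0.39) in PAX6-TBR2-, and the contrast was -2.38 (SE 0.27, edgeR adjusted p = 3.95e-05).

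Sema6d, a transmembrane semaphorin, was at 21.9, 25.7, 32.4 and 18.2 CPM in WT PAX6+ and at 159, 97.2, 174 and 121 CPM in KO PAX6+. Neuron libraries held 417 to 570 CPM in WT and 460 to 662 CPM in KO, overlapping. Its contrast was -2.28 (SE 0.25, edgeR adjusted p = 3.95e-05). Epha3, an ephrin receptor, had a contrast of -1.67 (SE 0.21, adjusted p = 9.71e-05), with 7.25 to 13.0 CPM in WT and 26.0 to 37.2 CPM in KO PAX6+, and a neuronal log2 difference of 0.001 (95% interval -0.28 to 0.29). Nrp1, a receptor for secreted semaphorins, rose from 4.08 to 5.97 CPM in WT PAX6+ to 8.45 to 13.96 CPM in KO, and its contrast was -1.28 (SE 0.24).

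Sema3c, a secreted semaphorin, had negative differences in both populations. It was at 3.12, 1.41, 4.62 and 2.97 CPM in WT PAX6+ and at 0.55, 0.33, 0.47 and 0.55 CPM in KO PAX6+, and at 24.2 to 36.6 CPM in WT and 16.7 to 19.3 CPM in KO neurons. Neither pair of groups overlapped. It fell by 2.66 (SE 0.36) in PAX6+ and its value in PAX6-TBR2- was -0.71 (95% interval -1.15 to -0.27, adjusted p = 0.395, edgeR). The contrast of 1.96 (adjusted p = 0.027) was lost in 8 of 16 fits that left out 1 library, with an adjusted p up to 0.104 without KO PAX6+ replicate 2, with limma (0.306) and without both KO libraries numbered 4 (0.0805).

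Adhesion, matrix and Notch genes gave further contrasts. Cdh8, a cadherin, was at 3.78 to 6.04 CPM in WT PAX6+ and 12.5 to 18.4 CPM in KO, with a contrast of -1.85 (SE 0.23, edgeR adjusted p = 8.39e-05). Pcdh7, a protocadherin, rose by 0.76 (SE 0.12) in PAX6+ and stood at -0.28 (95% interval -0.52 to -0.04) in neurons, with a contrast of -1.03 (SE 0.17). Lama1, a laminin chain, was at 62.2 to 73.7 CPM in WT PAX6+ and 139 to 199 CPM in KO, and at 15.3 to 18.8 CPM in WT and 21.7 to 27.3 CPM in KO neurons. The genotypes of Lama1 did not overlap in either population, and its neuronal value of 0.48 (SE 0.13) had an adjusted p of 0.366 by edgeR. Its contrast of -0.89 (adjusted p = 0.0139) was lost without WT PAX6-TBR2- replicate 4 (0.0543) and with all 24 libraries in the fit (0.0515).

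Dscaml1, an adhesion protein of the immunoglobulin superfamily (GRCm38 chromosome 9, 45426628 to 45753712, plus strand), was at 29.6, 20.1, 43.6 and 19.3 CPM in WT PAX6+ and at 7.46, 5.24, 6.70 and 4.70 CPM in KO PAX6+. Neurons held 92.9, 66.6, 130 and 141 CPM in WT and 75.2, 85.3, 133 and 111 CPM in KO. The PAX6+ genotypes were apart and the neuron genotypes overlapped. It fell by 2.24 (SE 0.28) in PAX6+, its neuronal value was -0.10 (95% interval -0.60 to 0.39), and the contrast was 2.14 (SE 0.37, edgeR adjusted p = 0.0038). Jag1, a ligand of Notch receptors, was at 11.8, 11.1, 19.9 and 12.7 CPM in WT PAX6+ and at 4.72, 4.99, 5.09 and 3.68 CPM in KO PAX6+, against 7.06 to 10.5 CPM in WT and 8.31 to 10.6 CPM in KO neurons. Its contrast was 1.63 (SE 0.29, adjusted p = 0.00579).

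Ppp1r1b, a phosphoprotein that inhibits protein phosphatase, had the most positive contrast by the naming rule, at 3.37 (SE 0.56, edgeR adjusted p = 0.00272). WT PAX6+ libraries held 1.98, 1.85, 2.01 and 2.86 CPM and KO PAX6+ libraries 0, 0.08, 0.28 and 0.28 CPM, while neurons held 10.4 to 16.4 CPM in WT and 6.47 to 14.3 CPM in KO. The PAX6+ groups were apart at a low level, and the contrast of Ppp1r1b did not pass with limma (0.0579) or with all 24 libraries in the edgeR fit (0.0681). Tox, a transcription regulator with an HMG box, was at 33.7, 25.4, 45.4 and 27.1 CPM in WT PAX6+ and at 8.56, 10.1, 7.26 and 7.18 CPM in KO PAX6+, with a neuronal log2 difference of -0.004 (95% interval -0.44 to 0.44) and a contrast of 1.99 (SE 0.32, adjusted p = 0.00188). Adamts18, a secreted metalloprotease, fell from 40.3 to 60.7 CPM in WT PAX6+ to 11.7 to 18.4 CPM in KO, with a contrast of 1.92 (SE 0.36). Tmem108, a transmembrane protein, had a contrast of 2.28 (SE 0.42), with 3.95 to 9.54 CPM in WT and 0.46 to 2.16 CPM in KO PAX6+, and did not pass with limma (adjusted p = 0.0679). Cybrd1, a ferric reductase, had a contrast of 2.37 (adjusted p = 0.0403) that was lost in 10 of 16 fits that left out 1 library, with an adjusted p up to 0.134 without KO PAX6-TBR2- replicate 1. The call of Cybrd1 was also lost with limma (0.196), with all 24 libraries in the edgeR fit (0.065) and without both KO libraries numbered 4 (0.0506).

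Summed markers of some other cell types had a lower range in KO PAX6+ than in WT PAX6+, beside the genes with a positive contrast. The 5 glial precursor markers summed to 6.38 to 12.1 CPM in WT PAX6+ and 2.91 to 6.03 CPM in KO PAX6+, and the 3 choroid plexus markers to 8.35 to 9.57 CPM and 5.80 to 8.11 CPM, so that neither sum overlapped between genotypes. Glial precursor markers with a mean of 1 CPM or more were 3 of 5 in WT and 2 of 5 in KO, with Olig1 and Pdgfra at 0 in WT, and 1 of 3 choroid plexus markers reached it in both, with Ttr at 0 in WT. The 5 meninges markers summed to 3.56 to 5.16 CPM in WT and 1.13 to 3.91 CPM in KO PAX6+, with 3 and 0 of 5 at 1 CPM or more and Lum at 0 in both. Of the 2 meninges markers tested, Col1a2, a collagen chain, fell by 2.06 in PAX6+ (edgeR adjusted p = 0.0224), and the list median was -1.43. The 7 endothelial and mural markers summed to 14.3 to 32.2 CPM in WT and 5.16 to 31.3 CPM in KO PAX6+, with 6 and 4 of 7 at 1 CPM or more, and all 6 that were tested had a contrast above 0, none of which passed. The 4 microglia markers had a higher range in KO, at 0.85 to 2.37 CPM in WT and 1.32 to 4.16 CPM in KO PAX6+, overlapping. Of these, 0 and 1 of 4 reached a mean of 1 CPM, and the list median was 0.79 in PAX6+. The 5 erythroid markers summed to 16.02 to 26.91 CPM in WT and 17.21 to 22.16 CPM in KO PAX6+. That KO range lay within the WT range, and the list median was -1.18 in PAX6+. The part of these markers in the contrasts was not tested.

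Cajal-Retzius and interneuron markers varied between libraries of WT PAX6+. The 5 Cajal-Retzius markers summed to 311 CPM in WT PAX6+ replicate 3 and to 35.4 to 55.6 CPM in the other WT PAX6+ libraries, against 17.7 to 100 CPM in KO PAX6+, with 3 of the 5 at a mean of 1 CPM or more. Replicate 3 was also the highest WT PAX6+ library for Grin2b, Dscaml1, Tox, Jag1, Cybrd1, Sema3c, Adamts18 and Grm5. The same library was highest for Pdzrn3, Sema6d, Epha3, Nrp1 and Stmn4, with negative contrasts, and for Ptx3 and Prdm16, whose contrasts did not pass. Without it, the contrast still passed for Dscaml1 (1.84), Tox (1.79), Jag1 (1.40) and Grin2b (1.85, edgeR adjusted p = 0.0481), and did not pass for Cybrd1 (0.0988), Sema3c (0.0706) or Grm5 (0.188). The interneuron marker sum was likewise higher in WT PAX6+ replicate 1, at 29.9 CPM, than in the 3 other WT libraries, at 8.09 to 13.0 CPM, and its part in these contrasts was not tested.

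**Figure D2:**
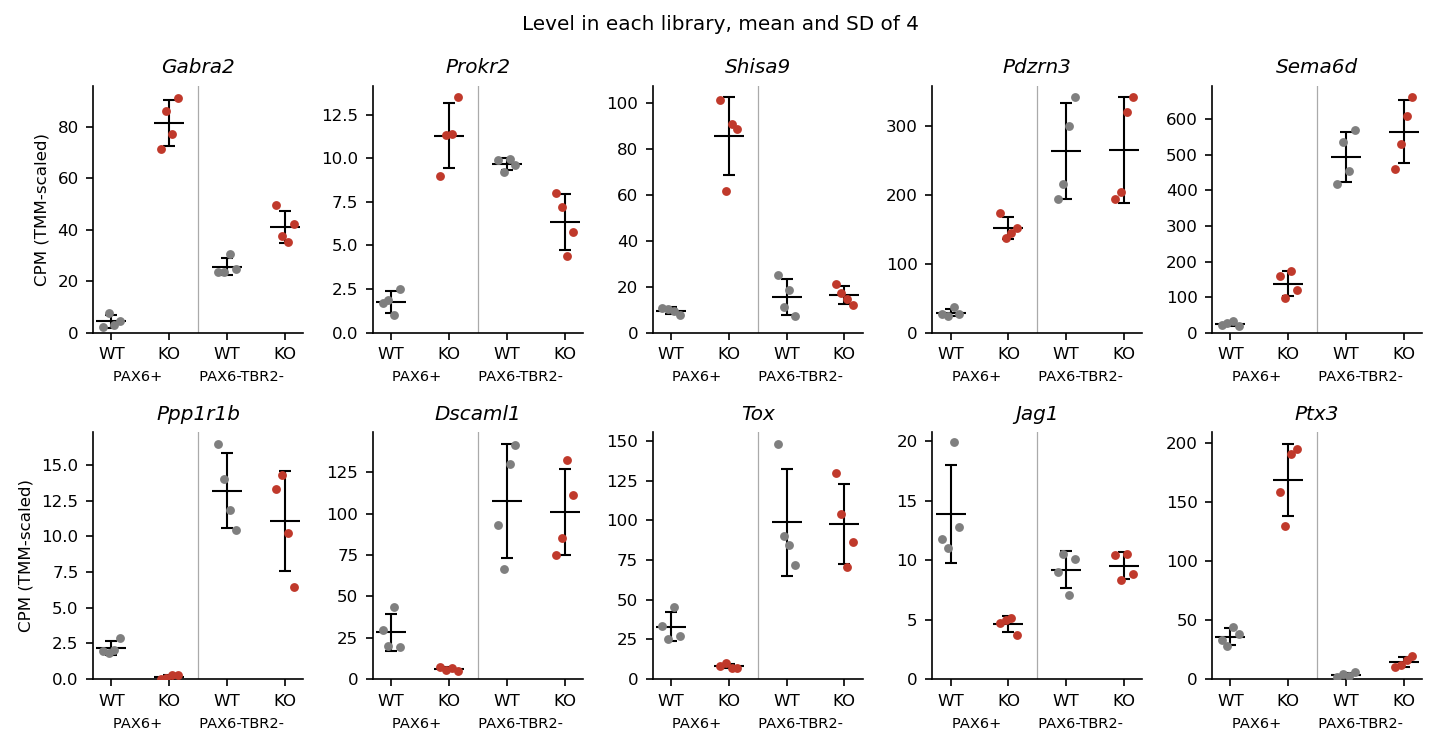
Level of 10 genes in each of the 16 libraries (points), with the mean and SD of the 4 libraries of each group, in TMM-scaled CPM on axes that start at 0. In PAX6+ cells KO and WT points are apart for all 10 genes, and in PAX6-TBR2- cells they overlap except for Gabra2, Prokr2 and Ptx3.

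Other named genes had a negative contrast. Myo1d, an unconventional myosin, was at 2.88 to 5.49 CPM in WT PAX6+ and 18.6 to 24.5 CPM in KO, against 10.5 to 12.7 CPM in WT and 9.77 to 15.3 CPM in KO neurons, with a contrast of -2.36 (SE 0.26, edgeR adjusted p = 3.95e-05). Fosl2, a subunit of the AP-1 transcription factor, rose from 6.84 to 11.3 CPM in WT PAX6+ to 27.0 to 40.3 CPM in KO, with overlapping neuron groups and a contrast of -1.60 (SE 0.30). In both genes the KO PAX6+ libraries stood above all WT PAX6+ libraries.

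Gene lists showed contrasts in only a few members each, set beside 0.775% of all genes. The lists were chosen with earlier results of these data known, so their shares are not a test of the lists. In the pan-neuronal list 3 of 18 genes passed. Syt1, the calcium sensor of synaptic vesicles, had a contrast of -1.03, the stathmin Stmn4 one of -1.28, and Dcx, a microtubule-binding protein of migrating neurons, one of 1.11, so that the members did not move together. The median contrast of that list was 0.02, against -0.01 over all genes. The contrasts of Dcx and Stmn4 were lost in 11 and 13 of 16 fits that left out 1 library (edgeR adjusted p up to 0.0759 without KO PAX6+ replicate 3 and 0.121 without the same library), and that of Syt1 in 2 (up to 0.057). With limma none of the 3 passed (Syt1 0.0885, Dcx 0.0636, Stmn4 0.0988). With all 24 libraries in the edgeR fit Syt1 (0.546) and Stmn4 (0.133) did not pass, and without both KO libraries numbered 4 Dcx (0.131) and Stmn4 (0.0847) did not. Stmn4 was also lost with DESeq2's size factors (0.0528) and with recovered reads (0.0588).

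In the neuronal migration list 5 of 25 genes passed, 3 negative and 2 positive. Pdzrn3 and Nrp1 were negative, as was Cdk5r1, an activator of the kinase Cdk5 that falls outside the naming rule, at -0.88, while Sema3c and Dcx were positive. In the list of GABA-A and glutamate receptors 4 of 24 passed, Gabra2 and Shisa9 negative and Grin2b and Grm5 positive, with a list median of 0.52. Axon guidance had 2 of 22, both negative, and cadherins and adhesion 3 of 25, of which Cdh8 and Pcdh7 were negative and Dscaml1 positive. Notch signalling had 1 of 17 (Jag1), ion channels 1 of 19 (Kcnn2), extracellular matrix 1 of 24 (Lama1), retinoic acid 1 of 12 (Cyp26b1), and immediate early and stress genes 1 of 16 (Fosl2).

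No member passed in the lists of radial glia identity (19 genes tested), intermediate progenitor (14), upper-layer neuron (14), deep-layer neuron (15), cell cycle (21), Wnt (19), BMP and TGF-beta (19) and FGF signalling (15) or cortical patterning (14). The same was the count for the PRDM family (9), PRDM16 corepressors and histone methylation partners (16), nuclear genes of oxidative phosphorylation (20), mitochondrially encoded genes (8), ribosomal proteins (20) and sex-linked genes (5). The medians of the contrast in these lists ran from -0.31 in upper-layer neuron genes to 0.38 in the sex-linked genes. A member that did not pass is not shown to have equal differences in both populations.

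**Figure D3:**
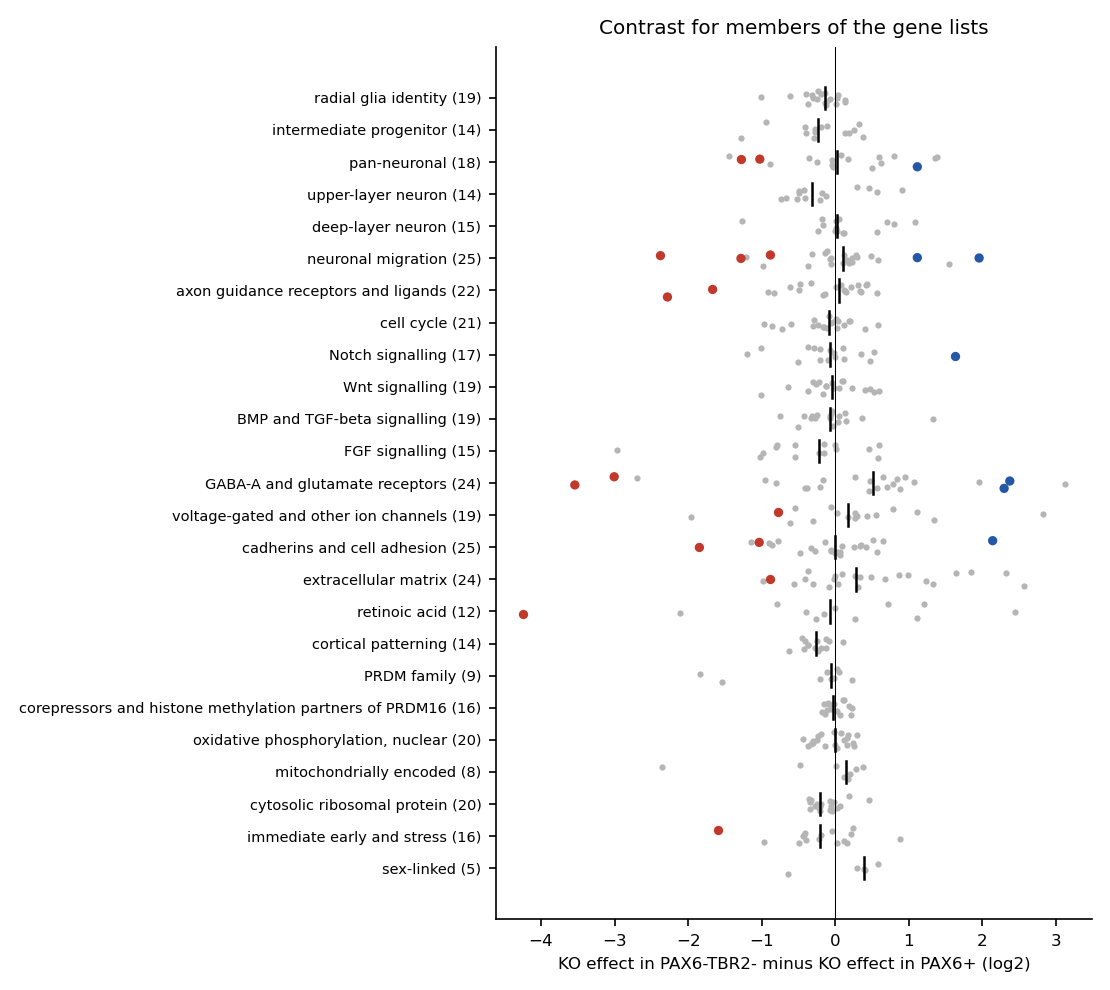
Contrast (log2, horizontal) of each tested member of 25 gene lists (points), with the list's number of tested genes in brackets and its median as a black bar. Coloured points passed the test, red negative and blue positive, and most lists hold members on both sides of 0 with a median near 0.

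Genes called in radial glia were also read in the neuron libraries. Of the 342 genes higher in KO PAX6+, 265 (77.5%) had a neuronal difference above 0, with a median of 0.14 and quartiles of 0.01 and 0.32. Of the 174 genes lower in KO PAX6+, 126 had a neuronal difference below 0, with a median of -0.15. Over all genes 49.0% were above 0. The PAX6+ and PAX6-TBR2- libraries are separate, but they may share embryos, which the labels do not give. Xist was low in KO replicate 4 of both populations (21.3 and 20.5 CPM), so the 2 readings may not be independent. The Pearson correlation of the differences across genes was 0.51 over the 516 genes and 0.17 over all 15102. Genes are not independent replicates, and no p is given. Radial glia markers still summed to 279 to 413 CPM in PAX6-TBR2- libraries. The part of PAX6+ cells left among the neurons in these neuronal differences was not tested. The same holds for single genes with a lower level in neurons than in PAX6+ cells, among them Lama1, Mecom and Prdm16.

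The 516 genes called in PAX6+ were sorted by their unadjusted 95% intervals. For 339 the contrast left out 0 and the neuronal difference did not, and for 74 the reverse held. Both left out 0 for 37 genes and neither did for 66. Over all 15102 genes the counts in the same order were 816, 740, 252 and 13294. The contrast contains the PAX6+ difference by which the 516 genes were selected, so intervals of the contrast that leave out 0 are partly built in. After adjustment the contrast passed for 85 of the 342 higher genes (24.9%) and 28 of the 174 lower genes (16.1%). For most genes called in PAX6+, a difference in size between the populations was therefore not established by the adjusted test.

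**Figure D4:**
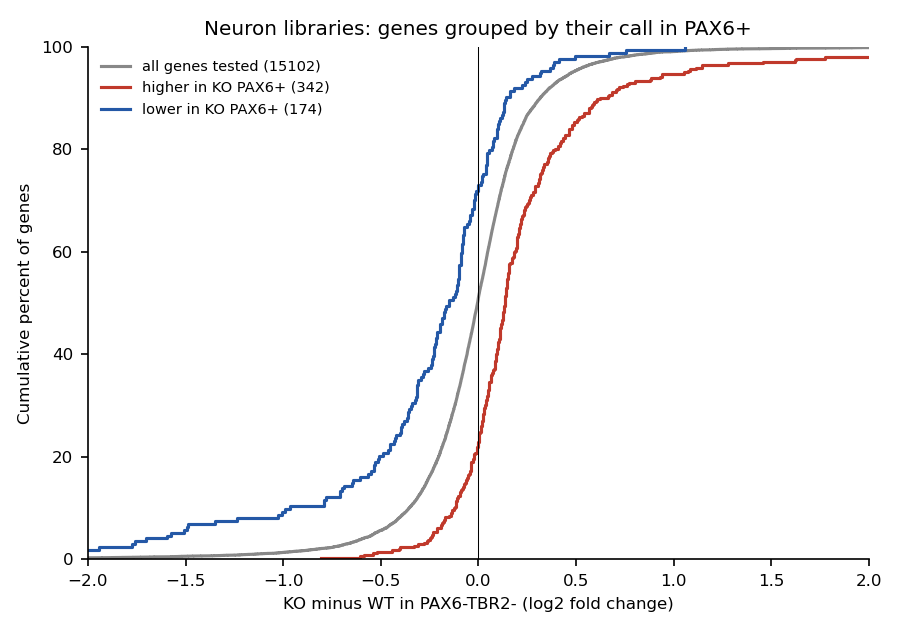
Cumulative percent of genes by their log2 difference KO minus WT in PAX6-TBR2- cells, for all 15102 genes (grey), the 342 higher in KO PAX6+ (red) and the 174 lower in KO PAX6+ (blue). The red curve lies to the right of the grey one and the blue curve to the left, with medians of 0.14 and -0.15.

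TBR2+ cells, fitted on their own 8 libraries, gave a reading of the same genes in separate libraries, though embryos may be shared with the contrast. There 223 of 12687 genes differed between KO and WT (1.76%), 139 higher (1.1%) and 84 lower (0.662%). The count ran from 121 without WT TBR2+ replicate 3 to 420 without KO TBR2+ replicate 1. Of the 87 genes with a negative contrast 83 were tested in TBR2+, and 21 were higher in KO and 1 (Zfhx4) lower, with a median log2 difference of 0.35. Of the 30 genes with a positive contrast 28 were tested, 2 (Sypl2 and Pdgfc) were higher and 2 (Palmd and Dscaml1) lower, with a median of 0.22; Sypl2, Pdgfc and Palmd are named after their values were seen. Together 23.4% of these genes passed in TBR2+, against 1.71% of the genes tested in both fits.

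Values of single genes in the 3 populations stand side by side here. Pdzrn3 was at 69.3 to 94.0 CPM in WT and 317 to 375 CPM in KO TBR2+, a rise of 2.07 (SE 0.11, edgeR adjusted p = 1.05e-07), beside 2.38 in PAX6+ and 0.004 in PAX6-TBR2-. Dscaml1 was at 86.9 to 110 CPM in WT and 18.5 to 30.5 CPM in KO TBR2+, a change of -1.96 (SE 0.14, adjusted p = 2.72e-06), beside -2.24 and -0.10. Both genes thus had genotypes that did not overlap in either progenitor population and overlapped in neurons.

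Gabra2 rose by 1.75 (SE 0.17, edgeR adjusted p = 6.33e-05) in TBR2+, beside 4.22 in PAX6+ and 0.68 in PAX6-TBR2-. Prokr2 rose by 1.45 (SE 0.27, adjusted p = 0.0105), beside 2.71 and -0.61. Fosl2 rose by 2.42 (SE 0.20), beside 1.74 and 0.14. Sema6d, Kcnn2 and Lama1 also rose in TBR2+, by 0.61, 0.54 and 1.53. By contrast, Shisa9 stood at -0.40 (95% interval -1.08 to 0.27), Myo1d at 0.09 (-0.57 to 0.75) and Epha3 at 0.10 (-0.10 to 0.29) in TBR2+, and none of these passed. Differences between TBR2+ and the other populations were not tested here.

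**Figure D5:**
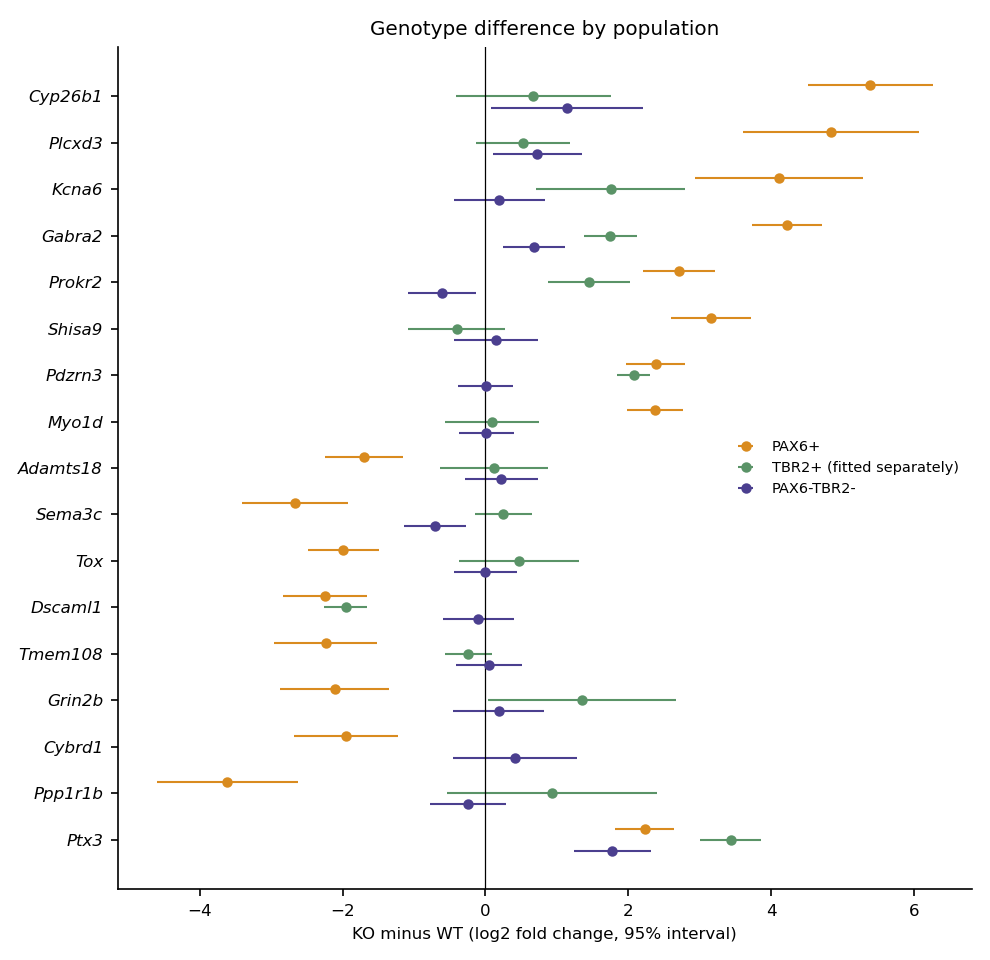
Log2 difference KO minus WT with its 95% interval in PAX6+ (orange), TBR2+ (green, fitted on its own libraries) and PAX6-TBR2- (purple) for the 16 genes with the largest contrasts by the naming rule and for Ptx3; Cybrd1 was not tested in TBR2+. Pdzrn3 and Dscaml1 differ in PAX6+ and TBR2+ and lie near 0 in PAX6-TBR2-, while Ptx3 lies above 0 in all 3.

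Ptx3 was the gene called in both populations and not in the contrast. It encodes a secreted long pentraxin (GRCm38 chromosome 3, 66219910 to 66225805, plus strand), and Veph1 overlaps it on the opposite strand, so reads of the pair may be mixed where the counting did not use strand. Ptx3 was at 32.9, 28.0, 44.2 and 38.3 CPM in WT PAX6+ and at 158, 130, 191 and 194 CPM in KO PAX6+. Neuron libraries held 1.80, 4.44, 3.03 and 5.67 CPM in WT and 10.2, 12.1, 15.8 and 19.3 CPM in KO. Neither pair of groups overlapped. The log2 difference was 2.23 (SE 0.20) in PAX6+ and 1.78 (SE 0.26, edgeR adjusted p = 0.0134) in PAX6-TBR2-, and the contrast was -0.45 (95% interval -1.13 to 0.23, adjusted p = 0.944). The neuronal call of Ptx3 was lost without WT PAX6-TBR2- replicate 2 or replicate 3, without KO PAX6-TBR2- replicate 4, with both KO libraries numbered 4 left out, and with limma. In TBR2+ cells Ptx3 rose by 3.43 (SE 0.20). The mean level of Ptx3 was 35.83 CPM in WT and 168.2 CPM in KO PAX6+, against 3.735 and 14.35 CPM in PAX6-TBR2-. Summed radial glia markers were likewise lower in PAX6-TBR2- libraries, at 279 to 413 CPM against 3142 to 4202 CPM in PAX6+. The part of PAX6+ cells left among the neurons in this call was not tested.

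Mecom, a close relative of Prdm16 with a PR domain of its own, was at 1.79, 1.41, 1.00 and 1.54 CPM in WT PAX6+ and at 20.4, 17.98, 22.6 and 19.7 CPM in KO PAX6+. In neurons the level was 0.23, 0.55, 0.29 and 0.16 CPM in WT and 1.19, 2.53, 0.18 and 1.24 CPM in KO, where 1 KO library fell within the WT range. It rose by 3.82 (SE 0.30) in PAX6+, its neuronal value was 2.29 (95% interval 1.13 to 3.45, edgeR adjusted p = 0.236), and the contrast of -1.53 (-3.06 to -0.01) did not pass (adjusted p = 0.703).

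Prdm16 itself (ENSMUSG00000039410, GRCm38 chromosome 4, 154316125 to 154636873, minus strand) was at 289, 264, 308 and 226 CPM in WT PAX6+ and at 239, 197, 196 and 173 CPM in KO PAX6+. PAX6-TBR2- libraries held 14.9, 28.5, 30.6 and 37.7 CPM in WT and 12.4, 18.6, 20.2 and 32.0 CPM in KO. The ranges of the genotypes overlapped in both populations. The KO library was below the WT library of the same number in 4 of 4 pairs in PAX6+, where the numbers were taken to pair the libraries, and in 4 of 4 in PAX6-TBR2-, where they were not. With the replicate block in PAX6+ the PAX6+ difference was -0.43 (95% interval -0.84 to -0.02, edgeR adjusted p = 0.311). Without the block, the log2 difference was -0.43 (95% interval -0.86 to -0.01, edgeR adjusted p = 0.372) in PAX6+ and -0.45 (-0.94 to 0.04) in PAX6-TBR2-, and the contrast was -0.02 (-0.65 to 0.62). The labels do not say which exons the loxP sites flank, so a count over the whole gene does not check the deletion.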

How the data were processed

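RNA-seq was made from sorted cells by single primer isothermal amplification without molecular identifiers, per the labels' protocols. STAR, featureCounts, cutadapt, FastQC, DESeq2 and the build mm10 are named in the submitters' processing notes. Neither the annotation release nor strandedness of counting is given in the sources used here. The deposited tables hold raw counts per Ensembl gene in 2 lane columns a library, and lanes were summed. Signal values fill the deposited normalized tables, from which whole reads were recovered (100% of values whole within 1e-06) and used as an alternative for PAX6+ and PAX6-TBR2-; in PAX6-TBR2- the recovered reads were 1.45 (KO) and 1.70 (WT) times the raw counts, with 1 of the 4 WT columns equal to a raw library, and in PAX6+ all 8 columns equalled one. Of 39017 genes 37693 were named with GENCODE M21 (GRCm38).

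The 16 libraries were fitted in edgeR 4.0.16 (R 4.3.3) with 1 mean per group, after filterByExpr and TMM scaling, by quasi-likelihood F tests, two-sided, of the contrast and of KO minus WT in each population, with Benjamini-Hochberg adjustment over all genes and a threshold of 0.05. TBR2+ was fitted on its 8 libraries. Libraries of a group differed by more than sampling noise (chi-square per degree of freedom 5.65 to 45.5 over 24 pairs). CPM are TMM-scaled over the 16 libraries (TBR2+: over its 8). SE is the log2 difference over the square root of F. The fit was tested on simulated data. Of 100 genes given a contrast of 1 log2 unit 42 were recovered, and of 100 given 2 log2 units 89. False calls there numbered 6. DESeq2 1.42.0 and limma 3.58.1 were alternatives, with other scaling and filters, recovered reads, a replicate block and each library left out.

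Named genes are Prdm16, Mecom, the 8 most positive and 8 most negative called contrasts with a group mean of at least 5 CPM and non-overlapping genotypes in a population, genes called in both populations and not in the contrast, and up to 4 called genes per list. The members and lists were chosen with earlier results of these data known. Same-numbered WT and KO libraries deviated together in PAX6+ (correlations 0.24, 0.20, 0.18 and 0.43, all above 0.1) and not in every pair in PAX6-TBR2- (0.29, 0.08, 0.31 and 0.34), so the numbers were taken to pair the PAX6+ libraries. In PAX6-TBR2- only replicate 2, at 0.08, was under the set minimum of 0.1, so pairing there is not excluded. The main fit used no block. With a block in both populations 332 genes passed in the contrast and 125 in PAX6-TBR2-.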

Additional observations from a re-analysis of the deposited data

Results flagged for a closer look

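The genotype difference itself differed between PAX6+ and PAX6-TBR2- cells, by edgeR's test of the contrast, for 87 genes with a lower and 30 genes with a higher value in PAX6-TBR2-. The 8 most negative by the naming rule were Cyp26b1 (-4.24), Plcxd3 (-4.11), Kcna6 (-3.91), Gabra2 (-3.54), Prokr2 (-3.32), Shisa9 (-3.00), Pdzrn3 (-2.38) and Myo1d (-2.36). The 8 most positive by that rule were Ppp1r1b (3.37), Cybrd1 (2.37), Grin2b (2.29), Tmem108 (2.28), Dscaml1 (2.14), Tox (1.99), Sema3c (1.96) and Adamts18 (1.92). Named genes chosen through the gene lists are given above. All values are log2 differences of differences.

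In 4 of 140 groups of 4 libraries examined, 1 library stood apart from the other 3 by Dixon's criterion; chance flags about 1 in 20 groups. Ppp1r1b was at 2.86 CPM in WT PAX6+ replicate 4, above the rest of its group. Adamts18 was at 11.7 CPM in KO PAX6+ replicate 2, below the rest, and Grm5 at 0.28 CPM in KO PAX6+ replicate 3, above the rest. The total of WT PAX6-TBR2- replicate 4, 30.03 M counts, was far above the other totals of that group; thinned to a depth like theirs, 108 genes passed in the contrast.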

How the results depend on the processing

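The contrast called 117 genes, and 54 passed in all 29 settings, 68 in all 16 fits that left out 1 library (84 to 109 genes called). It called 219 genes without a filter and 332 with a replicate block in both populations. The other settings gave 84 to 170. KO minus WT in PAX6+ called 516, 349 to 530 with 1 library left out, and 1136 with the block in both populations. In PAX6-TBR2- the 1 call became 33 with DESeq2, 4 with limma, 51 without a filter, 125 with the block in both populations, 10 with the block in PAX6+ only, 6 with all 24 libraries, 7 with recovered reads, 0 without both KO libraries numbered 4 (chosen after seeing the data), and 0 to 7 with 1 library left out (0 without WT replicate 2 or 3 or KO replicate 4, 2 without KO replicate 3, 7 without WT replicate 1 or KO PAX6+ replicate 4). In TBR2+ the 223 calls became 363 with DESeq2, 728 without a filter, 720 with the block, and 121 to 420 with 1 library left out (leaving out WT replicates 3 and 1 gave 121 and 137, and leaving out KO replicates 2, 3 and 1 gave 139, 142 and 420, each in turn). Causes were not tested. Over 893 alternative fits of the 32 named genes, 790 kept their direction and side of the threshold, 93 lost the call, and 10 had the other sign, all of them of Prdm16, whose contrast (-0.02) did not pass in any fit. It was 0.01 with DESeq2, 0.0187 with the replicate block in both populations, 0.0531 with WT PAX6-TBR2- replicate 4 thinned, and -0.32 to 0.19 with 1 library left out. Among the named genes, the block in PAX6+ only changed the call of Grm5 and no other.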
